A study of Mus musculus with 14 samples.

Results

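Beta cells are known for keeping a small set of widely expressed genes nearly silent, the disallowed genes. Several of them are metabolic. Low lactate dehydrogenase A and low monocarboxylate transport are thought to send pyruvate into mitochondria and to keep circulating pyruvate or lactate from triggering insulin release. Hexokinases of high glucose affinity, kept low as well, would phosphorylate glucose at concentrations too low to call for insulin. The 10 metabolic members described here are Ldha, Slc16a1, Hk1, Hk2, Acot7, Mgst1, Oat, Cat, Aldh1a3 and Tst. They were chosen by name, and each had 1 row among the 52459 genes of the deposited count table.

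RNA was sequenced from dispersed pancreatic islet cells of male C57BL/6J mice aged 7 months, sorted by flow cytometry on acidic beta-galactosidase activity, a lysosomal activity used as a marker of senescence. The 14 libraries are 7 of cells that stained for the activity (positive, below) and 7 of cells that did not (negative), numbered 1 to 7 in both groups, with no other treatment or genotype in the labels. The series title places them in work on beta cell ageing in diabetes, and the comparison asks how transcripts of positive cells differed from those of negative cells. No label ties a library to its own animal, so the tests measure only how these libraries spread, and that spread may be technical.

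Totals were 15585779 to 24577025 counts in positive and 11060144 to 23045934 counts in negative libraries. Summed RNA of 10 beta cell markers was 99425 to 129660 CPM, counts scaled to library size, in positive and 103463 to 154433 CPM in negative libraries, so both groups were rich in beta cell RNA. The sort was on an enzyme activity and not on a cell type. Sums of 12 endothelial markers were 390 to 1317 CPM in positive and 4.59 to 69.8 CPM in negative libraries, and sums of 12 macrophage and dendritic cell markers were 84.3 to 798 CPM in positive and 17.4 to 25.1 CPM in negative libraries. All 12 genes of both lists were higher in positive libraries by the test used below, and 2 of 3 delta cell markers were too, Sst and Hhex. None of the 6 alpha cell markers and none of the 10 beta cell markers was called (5 beta cell markers were lower with the block described below). Of 11 tested acinar markers 5 were lower in positive libraries, and 10 with the block. Without the 4 libraries numbered 6 and 7 (no block), 0 of 11 were. All 12 endothelial and all 12 macrophage markers stayed higher without those 4 libraries. With the block all 12 endothelial and 11 of 12 macrophage markers were higher. The exception was C1qa (edgeR adjusted p = 0.087), whose call was also lost in 8 of 14 fits that left out 1 library. Positive 6 and 7 held the most macrophage RNA, 798 and 561 CPM. Of 9 tested pericyte, stellate and fibroblast markers, 4 were higher in positive libraries and 0 lower (2 higher without the 4 libraries numbered 6 and 7). The call of Pdgfrb, among the 4, was lost in 13 of 14 fits that left out 1 library (edgeR adjusted p 0.0533 to 0.0947). Sums of the 10 listed markers were 47.8 to 247 CPM in positive libraries. Negative 3 held 1453 CPM of them, against 15.6 to 70.8 CPM in the other negative libraries. Glb1, the gene of lysosomal beta-galactosidase itself, had 18.1 ± 0.91 CPM in positive and 17.5 ± 1.88 CPM in negative libraries (SD, n = 7 each).

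Of the 10 members, 8 had enough reads to be tested, and 3 of the 8 rose in positive cells: Slc16a1, Hk1 and Cat. None fell. Calls are Benjamini-Hochberg adjusted p-values below 0.05 over 16350 genes in edgeR's quasi-likelihood test. Of all genes tested, 8.03% were called, 6.4% as higher and 1.63% as lower. The median log2 fold change (positive over negative) of the 8 tested members was 1.51, against 0.00 over all genes tested. No label pairs the libraries. Those of the same number deviated together from their group means, so pairs were inferred from these data. With the number as a block Ldha rose as well, which made 4 of 8, where 11.8% of all genes were called as higher. No member had every positive library above every negative one, which 3.5% of all genes had. DESeq2, which kept all 10 members, called 5 as higher (6.97% of genes), and limma-voom called the same 3 as edgeR (6.21% of genes). Without the 4 libraries numbered 6 and 7, edgeR called 0 of 8 members (3.28% of genes as higher; 3 members had an unadjusted p below 0.05), and 2 of 8 with the block (6.36%). Acot7 and Mgst1 had too few reads for the test and are given from a fit without the filter. In RNA from mixed cells, fewer cells of a type and less RNA per cell cannot be told apart, and each difference below is one of RNA per library.

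**Figure D1:**
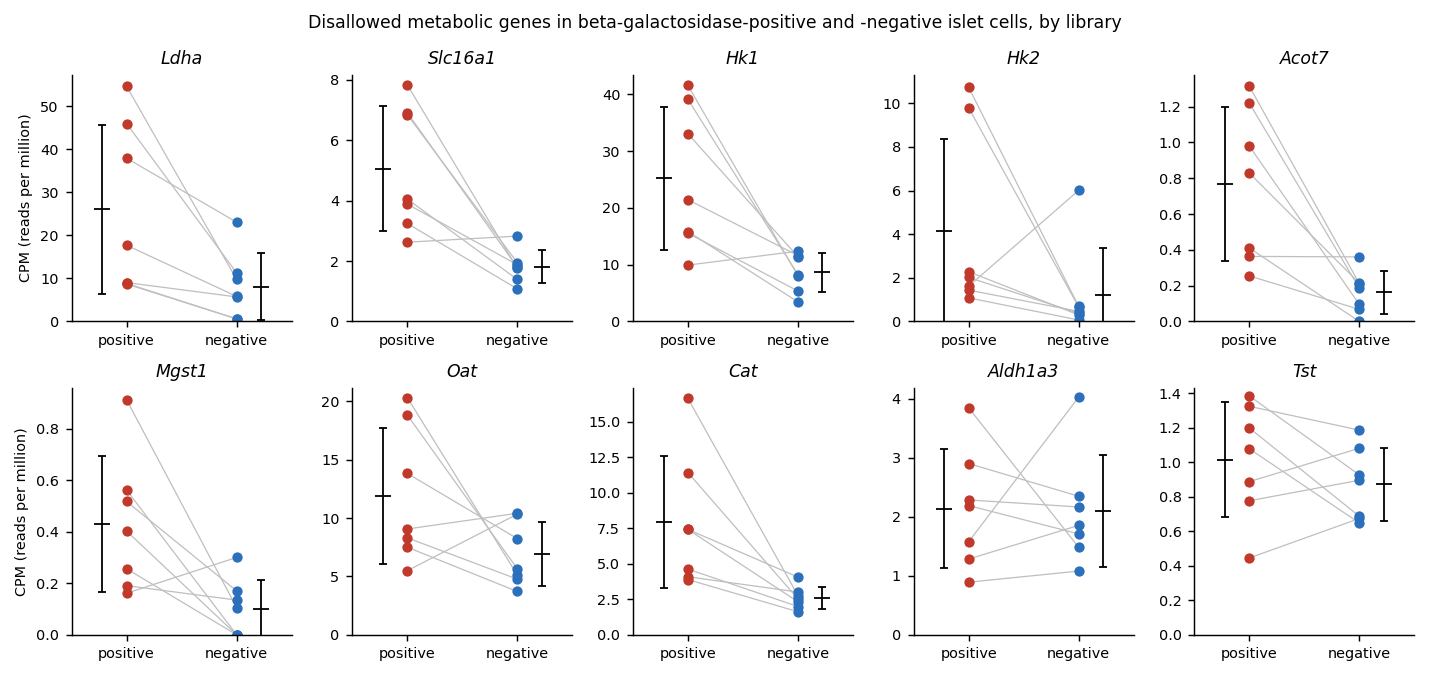
CPM of the 10 members in each library, with positive cells at the left of each panel; grey lines join libraries of the same number, and black bars give the mean ± SD of 7 libraries, cut off at 0. In all 7 pairs Cat, Ldha and Acot7 were higher in the positive library, while Aldh1a3 and Tst overlapped over most of their range.

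Promoter windows are shown for 5 of the members called in at least 1 fit, with 1 window per member. Hk2 was called only in fits that left out negative 3. Acot7 and Mgst1 were also called in at least 1 fit and are not shown. Each run is the 250 bases before a RefSeq gene start (GRCm38.p6), 5′ to 3′ on the gene's strand. Capitals mark ACGTG (the core of the hypoxia response element), CACGTG (an E-box) and GGGCGG (a GC box) on either strand; every CACGTG also holds ACGTG on both strands.
Ldha, chr7:46845554-46845803, plus strand: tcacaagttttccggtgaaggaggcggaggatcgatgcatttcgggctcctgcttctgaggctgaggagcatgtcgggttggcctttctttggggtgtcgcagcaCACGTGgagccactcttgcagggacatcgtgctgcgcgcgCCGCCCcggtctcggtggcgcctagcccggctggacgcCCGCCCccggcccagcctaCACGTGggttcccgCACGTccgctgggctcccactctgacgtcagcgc
Slc16a1, chr3:104638414-104638663, plus strand: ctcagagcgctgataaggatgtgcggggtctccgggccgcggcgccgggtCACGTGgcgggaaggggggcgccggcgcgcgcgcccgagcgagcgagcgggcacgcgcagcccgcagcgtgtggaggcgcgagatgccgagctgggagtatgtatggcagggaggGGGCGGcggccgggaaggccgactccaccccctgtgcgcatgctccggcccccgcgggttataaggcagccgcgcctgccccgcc
Hk2, chr6:82774455-82774704, minus strand: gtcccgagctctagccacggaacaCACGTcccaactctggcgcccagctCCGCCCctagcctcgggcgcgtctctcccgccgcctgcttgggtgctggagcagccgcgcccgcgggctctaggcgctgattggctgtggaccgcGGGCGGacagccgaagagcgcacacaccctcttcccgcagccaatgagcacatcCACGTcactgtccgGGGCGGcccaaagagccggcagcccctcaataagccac
Cat, chr2:103485154-103485403, minus strand: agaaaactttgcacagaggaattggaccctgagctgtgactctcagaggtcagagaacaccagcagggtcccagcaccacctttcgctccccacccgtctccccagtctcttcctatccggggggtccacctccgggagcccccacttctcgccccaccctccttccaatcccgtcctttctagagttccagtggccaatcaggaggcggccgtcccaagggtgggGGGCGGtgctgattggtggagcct
Hk1, chr10:62379909-62380158, minus strand: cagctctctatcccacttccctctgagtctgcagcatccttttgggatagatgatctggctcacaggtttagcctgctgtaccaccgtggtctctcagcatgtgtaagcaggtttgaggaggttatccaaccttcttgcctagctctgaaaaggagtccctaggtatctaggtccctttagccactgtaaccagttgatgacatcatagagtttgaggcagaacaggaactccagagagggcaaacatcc
RefSeq windows were matched for 8 members (11 windows). A member is counted if any of its windows holds the motif, whereas the percentages are shares of single windows. Counts and percentages are thus not on the same unit. ACGTG was found in windows of 3 members, Ldha, Slc16a1 and Hk2, and in 16.6% of all 32851 promoter windows. CACGTG was found for 2 members, at 145 and 48 bases before the start of Ldha and at 200 bases before that of Slc16a1, and in 6.02% of all windows. GGGCGG was found for 6 members and in 32.7% of all windows. The window of Hk1 shown held none of the 3 motifs. A match describes letters and not a bound site.

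Ldha encodes the A subunit of lactate dehydrogenase, which favours the reduction of pyruvate to lactate; the gene lies on chromosome 7, 46841475 to 46855627, plus strand (GRCm38, as are the gene positions below). It had 8.72, 17.7 and 54.7 CPM (lowest, median and highest) in positive libraries, against 0.596, 5.83 and 23.1 CPM in negative libraries. The groups overlapped: positive 1, 6 and 7 stood above every negative library, while negative 4 and 5 had almost no Ldha reads. The log2 fold change was 1.65 ± 0.70 (SE; 95% interval 0.13 to 3.16) and was not called (edgeR adjusted p = 0.194). In all 7 pairs, though, Ldha was higher in the positive library, as were 11.1% of all genes tested. With the replicate number as a block the log2 fold change was 1.82 ± 0.38 (edgeR adjusted p = 0.0185), and this call was lost without the 4 libraries numbered 6 and 7 (adjusted p = 0.153).

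Reads of Ldha may be shared with its processed pseudogenes. Stretches of at least 100 bases at 95% identity or more occurred in transcripts of 8 other genes, of which Ldha-ps2 had the most reads. Ldha-ps2 had 3.71 ± 2.66 CPM in positive and 1.12 ± 0.90 CPM in negative libraries (SD, n = 7 each); its log2 fold change was 1.66 and was not called (edgeR adjusted p = 0.0829; 0.000747 with the block). Its deviations from the group means followed those of Ldha with a Pearson r of 0.95 over 14 libraries.

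Of the other lactate dehydrogenase genes, Ldhd fell and Ldhb was not called. Ldhb, the B subunit, which favours lactate oxidation, had 6.63 ± 1.04 CPM in positive and 7.84 ± 1.69 CPM in negative libraries (log2 fold change −0.23, edgeR adjusted p = 0.347). Ldhc, the testis subunit, had 1 read in positive 2 and none elsewhere. Per kilobase of exon, Ldha made up 57.4 ± 20.8% of the 3 transcripts in positive and 28.3 ± 21.0% in negative libraries (SD, n = 7 each). Shares ran from 35.0% to 81.4% in positive and from 3.28% to 60.0% in negative libraries, so the groups overlapped, and in all 7 pairs the positive library had the larger share. The difference of 29.1 percentage points did not pass after adjustment over the 4 families examined (two-sided exact permutation p = 0.0262, adjusted 0.0524). Sign flips within pairs gave the smallest p they can give, 0.0156 (exact, adjusted 0.0625). Ldhd, a mitochondrial enzyme that oxidises D-lactate, fell to 17.9 ± 1.08 CPM in positive libraries, against 22.5 ± 1.71 CPM in negative libraries (log2 fold change −0.33 ± 0.06, SE, edgeR adjusted p = 0.00253).

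Slc16a1 encodes the monocarboxylate transporter MCT1, which carries lactate and pyruvate across the plasma membrane (chromosome 3, 104638668 to 104658462, plus strand). It had 2.62, 4.05 and 7.84 CPM (lowest, median and highest) in positive libraries, against 1.08, 1.80 and 2.83 CPM in negative libraries. Of the 7 positive libraries, 6 stood above every negative library; the exception was positive 3, which fell below negative 3 only. Slc16a1 rose by a log2 fold change of 1.47 ± 0.26 (SE, edgeR adjusted p = 0.00161), higher in 6 of 7 pairs, as 22.2% of all genes were in at least 6. The call was kept in all 14 fits that left out 1 library. Without the 4 libraries numbered 6 and 7 it was lost by a narrow margin (log2 fold change 1.17, adjusted p = 0.0592), and it was kept without them under the block (adjusted p = 0.0382).

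Among the other monocarboxylate transporters, Slc16a7 (MCT2, of high affinity for pyruvate) rose, at 5.31 ± 2.92 CPM in positive and 1.23 ± 0.56 CPM in negative libraries (SD, n = 7 each; log2 fold change 2.10 ± 0.38, SE, edgeR adjusted p = 0.00177). Slc16a3, which encodes the lactate exporter MCT4, had 1.53, 3.85 and 13.9 CPM (lowest, median and highest) in positive libraries, against 0.132, 1.20 and 7.85 CPM in negative libraries. Its log2 fold change of 1.37 ± 0.75 was not called (edgeR adjusted p = 0.323), and with the block it was (adjusted p = 0.0336). Slc16a3 followed Ldha closely from library to library: both were highest in positive 6 and lowest in negative 4 and 5, and negative 1 led its group for both. The Pearson r of their deviations from the group means was 0.97 over 14 libraries. Slc16a8, known from the retinal pigment epithelium, had 9 reads over all positive and 16 over all negative libraries. Slc16a1 held 46.7 ± 10.3% of the transcripts of the 4 transporters per kilobase in positive and 52.6 ± 18.8% in negative libraries, and the difference of −5.93 percentage points did not pass (exact permutation p = 0.481, adjusted 0.642). It depended on single libraries, from −11.4 points without negative 1 to −1.80 points without negative 4, and passed in none of the 14 such tests.

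Around these genes, of 14 tested genes of pyruvate and lactate exchange 1 rose and 1 fell, Slc16a7 and Ldhd, with a median log2 fold change of 0.03, against 0.00 over all genes tested; with the block 3 rose and 1 fell. Bsg, the chaperone that brings MCT1 and MCT4 to the membrane, had a log2 fold change of 0.21 (edgeR adjusted p = 0.461) and was called with the block only (0.0317).

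Hk1 and Hk2 encode hexokinases that phosphorylate glucose at low concentrations and can bind mitochondria. Hk1 (chromosome 10, 62268855 to 62379908, minus strand) had 9.93, 21.5 and 41.6 CPM (lowest, median and highest) in positive libraries, against 3.44, 8.24 and 12.4 CPM in negative libraries. Again 6 of the 7 positive libraries stood above every negative library, and positive 3 did not. Hk1 rose by 1.54 ± 0.35 on the log2 scale (SE, edgeR adjusted p = 0.014), higher in 6 of 7 pairs, and stayed called in all 14 fits that left out 1 library. Without the 4 libraries numbered 6 and 7 the log2 fold change was 1.11 and was called neither without nor with the block (adjusted p = 0.207 and 0.148). An antisense gene, Hk1os, shares 157 exon bases with Hk1 and had 22 reads in all.

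Hk2 (chromosome 6, 82725025 to 82774454, minus strand) had 1.08, 2.02 and 10.7 CPM in positive libraries, against 0.0674, 0.463 and 6.01 CPM in negative libraries. Negative 3 held the 6.01 CPM, while the other 6 negative libraries lay below every positive library. The gene passed the filter on low counts through its positive libraries. Its log2 fold change of 1.74 ± 0.83 was not called with all 14 libraries (edgeR adjusted p = 0.251; 95% interval −0.05 to 3.53). The value depended on negative 3: without it the log2 fold change was 3.20 ± 0.69 (adjusted p = 0.00811), and without both libraries numbered 3 and with the block it was 3.31 (adjusted p = 2.3e-06, a fit added after the data were seen). Both leave out the library that stood apart in Hk2 itself, so they restate the gap between the other libraries and add no support. The same holds for their counts of members called as higher, 4 of 8 and 5 of 8, where 7.63% and 12.9% of all genes were. Positive 6 and 7 had 10.7 and 9.79 CPM, against 1.08 to 2.28 CPM in the other 5 positive libraries. Without all 4 libraries numbered 6 and 7 its log2 fold change was 0.21 (adjusted p = 0.952). The libraries that stood apart in Hk2 also held the most RNA of other cells: negative 3 of the pericyte and fibroblast markers, and positive 6 and 7 of the macrophage markers. The part of those cells in the Hk2 level was not tested.

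Hk3, a hexokinase known from myeloid cells, rose by 3.85 ± 0.58 (edgeR adjusted p = 0.000522) and was highest in positive 6 and 7, at 18.8 and 12.3 CPM. Slc2a1, the glucose transporter GLUT1, rose by 0.57 ± 0.08 (edgeR adjusted p = 0.000279), whereas Slc2a2, the transporter GLUT2 of mouse beta cells, was not called (log2 fold change −0.25, adjusted p = 0.574). Of 8 tested genes of hexokinases, their regulators and glucose entry, Hk3 and Slc2a1 rose and 0 fell, with a median of −0.10.

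**Figure D2:**
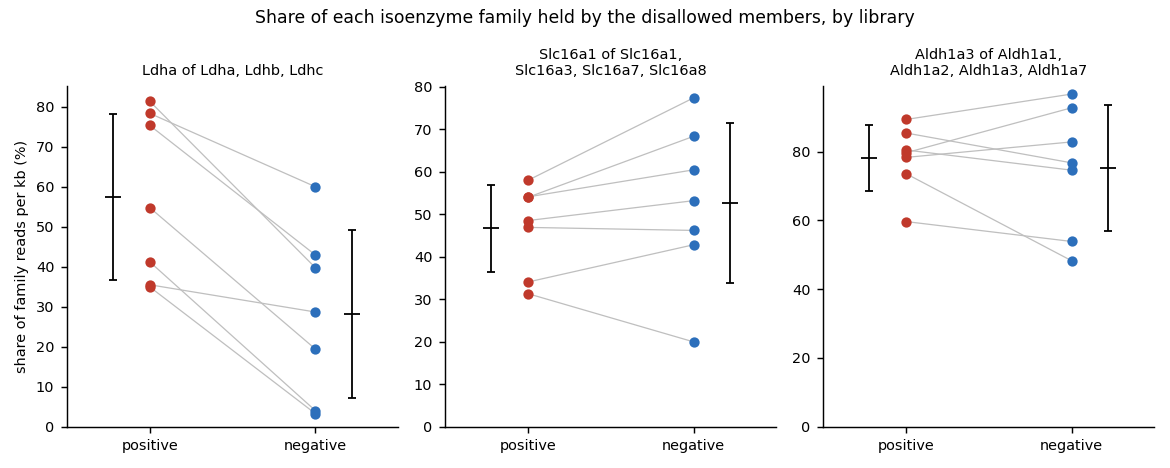
Share of reads per kilobase of exon within 3 enzyme or transporter families that came from the disallowed members, by library, with pairs joined and the mean ± SD of 7 libraries in black. The share of Ldha averaged 57.4% in positive and 28.3% in negative libraries; none of the 3 differences passed after adjustment.

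Of the later glycolysis genes, 0 of 15 were called in either direction by edgeR without the block (median log2 fold change 0.22), and with it 8 rose and 3 fell. Pkm, the muscle-type pyruvate kinase, had 632 ± 167 CPM in positive and 519 ± 132 CPM in negative libraries (SD, n = 7 each); its log2 fold change of 0.28 was called with the block only (adjusted p = 0.00383, and 0.403 without it). Of 10 genes of the shuttles that carry NADH equivalents into mitochondria, which beta cells use in place of lactate production, 1 rose: Got1, a transaminase of the malate-aspartate shuttle (log2 fold change 0.46 ± 0.10, edgeR adjusted p = 0.00841). The median of these 10 was 0.01, and with the block 2 rose and 2 fell. Of 14 hypoxia response genes 3 rose and 0 fell, with a median of 0.19; with the block 7 rose and 1 fell, and without the 4 libraries numbered 6 and 7 (no block) 1 rose. Epas1, a hypoxia-inducible factor abundant in endothelium, rose by 4.57, and Ddit4, an inhibitor of mTORC1 signalling, by 0.46, a call lost without the 4 libraries numbered 6 and 7 (adjusted p = 0.0814). Hif1a rose by 0.25 (adjusted p = 0.0419), a call kept only without negative 4 or positive 1, 2 or 5; in the other 10 fits that left out 1 library it was lost (adjusted p 0.0602 to 0.12).

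Cat encodes catalase, which breaks down hydrogen peroxide in peroxisomes (chromosome 2, 103453849 to 103485160, minus strand). It had 3.88, 7.41 and 16.6 CPM (lowest, median and highest) in positive libraries, against 1.62, 2.52 and 4.05 CPM in negative libraries. Positive 5 was the only positive library below a negative one, negative 1, and in all 7 pairs Cat was higher in the positive library. It rose by 1.58 ± 0.33 on the log2 scale (SE, edgeR adjusted p = 0.00529), in all 14 fits that left out 1 library too. Positive 6 and 7 again held the highest levels, 16.6 and 11.4 CPM. Without the 4 libraries numbered 6 and 7 the log2 fold change was 1.06 and was called with the block only (edgeR adjusted p = 0.00699 with it, 0.0687 without). None of 20 other genes of peroxide removal and peroxisomes was called, with a median log2 fold change of 0.04; with the block 1 rose and 1 fell.

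Mgst1, a membrane-bound glutathione transferase and peroxidase (chromosome 6, 138140316 to 138156755, plus strand), was near the limit of detection. It had 57 reads over all positive and 13 over all negative libraries. No read was found in negative 2, 4 and 7, where a count of 0 allows up to 0.278, 0.199 and 0.142 CPM (3 counts per library, counting error only). Levels ran from 0.161 to 0.914 CPM in positive and from 0 to 0.301 CPM in negative libraries, and 4 positive libraries stood above every negative one. Without the filter, 4 of the 10 members were called as higher, where 3.94% of all genes were, and Mgst1 was not among them (log2 fold change 1.91 ± 0.57, edgeR adjusted p = 0.0547). It was called by DESeq2 (adjusted p = 0.0289) and, in a fit added after the data were seen, by edgeR with the block and no filter (adjusted p = 0.0404); that fit called 5 of 10 members and 6.3% of all genes as higher, with Ldha, Slc16a1, Acot7 and Cat the others, and did not call Hk1. Among 12 tested glutathione transferases Gsto1 rose (log2 fold change 0.64 ± 0.13, edgeR adjusted p = 0.00562) and Gstz1 fell (−0.45 ± 0.10, adjusted p = 0.0058), with a median of −0.15; with the block 1 rose and 4 fell.

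Acot7, a cytosolic thioesterase that frees long-chain fatty acids from coenzyme A (chromosome 4, 152178134 to 152271855, plus strand), was as scarce, with 103 reads over all positive and 20 over all negative libraries. It ran from 0.254 to 1.31 CPM in positive libraries and from 0 (negative 4; upper limit 0.199 CPM) to 0.361 CPM in negative libraries. Positive 5 was the only positive library not above all negative ones, and in all 7 pairs Acot7 was higher in the positive library. In the fit without the filter its log2 fold change was 2.15 ± 0.46 and was called (edgeR adjusted p = 0.00516; DESeq2 adjusted p = 0.000853), although the size rests on few negative reads. Of 14 other thioesterase and fatty acid activation genes, 2 rose: Acot10 (log2 fold change 0.91, edgeR adjusted p = 0.0177; 0.286 without the 4 libraries numbered 6 and 7) and Acot9 (0.65, adjusted p = 0.0479). With the block 6 of the 14 rose, and without the 4 libraries numbered 6 and 7 none was called with or without it. Acot9 and Acot10 are close relatives, so reads of one may be counted for the other. The call of Acot9 was kept only without negative 3 or positive 3, 4 or 5, and lost in the other 10 such fits (adjusted p 0.0542 to 0.118).

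Oat encodes ornithine aminotransferase, a mitochondrial enzyme between ornithine, glutamate and proline (chromosome 7, 132557478 to 132576398, minus strand). It had 5.49, 9.07 and 20.3 CPM (lowest, median and highest) in positive libraries, against 3.71, 5.65 and 10.4 CPM in negative libraries, with 3 positive libraries (2, 6 and 7) above every negative one. The log2 fold change of 0.78 ± 0.32 was not called (edgeR adjusted p = 0.165; 95% interval 0.10 to 1.46; 0.21 with the block), and it was 0.23 without the 4 libraries numbered 6 and 7. Of 15 other genes of ornithine, arginine and proline metabolism, 0 were called in either direction by edgeR (median −0.02), with 2 higher and 2 lower under the block.

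Aldh1a3 makes retinoic acid from retinaldehyde and is known as a marker of dedifferentiating beta cells in diabetic mice (chromosome 7, 66390890 to 66427517, minus strand). It had 0.891, 2.19 and 3.85 CPM in positive libraries, against 1.08, 1.85 and 4.03 CPM in negative libraries. The ranges nearly coincided. Its log2 fold change was 0.03 ± 0.32 (SE, edgeR adjusted p = 0.977), with a 95% interval of −0.64 to 0.70. Negative 3 had the highest level of all 14 libraries, and the sign turned under several settings given below. Stretches of 142 to 194 of its 4617 exon bases, at 95% identity or more, were shared with transcripts of 42 other genes. Counted over the whole genes, those had 549265 reads, against 553 of Aldh1a3. How many lay in the shared stretches is not known, and some reads of Aldh1a3 may belong to those genes. With that limit, Aldh1a3 held 78.1 ± 9.56% of the reads per kilobase of the 4 family genes in positive and 75.1 ± 18.3% in negative libraries (exact permutation p = 0.714, adjusted 0.714); Aldh1a1, Aldh1a2 and Aldh1a7 were too scarce to test. Of 8 tested genes of retinoic acid synthesis and response 1 rose, Dhrs3, a retinaldehyde reductase (log2 fold change 2.08 ± 0.34, edgeR adjusted p = 0.000897).

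Tst encodes thiosulfate sulfurtransferase, or rhodanese, a mitochondrial enzyme of cyanide and sulfide detoxification (chromosome 15, 78399556 to 78405907, minus strand). It had 0.445, 1.08 and 1.39 CPM in positive libraries, against 0.648, 0.896 and 1.19 CPM in negative libraries. The lowest library of all was a positive one, and Tst was higher in 4 of 7 pairs. The log2 fold change was 0.20 ± 0.24 (edgeR adjusted p = 0.678; 95% interval −0.30 to 0.71). Of 13 other genes of cysteine, sulfide and cyanide metabolism 2 rose, Got1 (given above) and Gclc (0.26, adjusted p = 0.0291), and 1 fell, Csad (−0.29, adjusted p = 0.0381), and with the block 3 rose and 2 fell. The calls of Gclc and Csad were each lost in 7 of 14 fits that left out 1 library, both without negative 1, 2 or 5 or positive 6 or 7, Gclc also without negative 7 or positive 1, and Csad also without negative 4 or positive 3 (adjusted p 0.0514 to 0.0795).

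**Figure D3:**
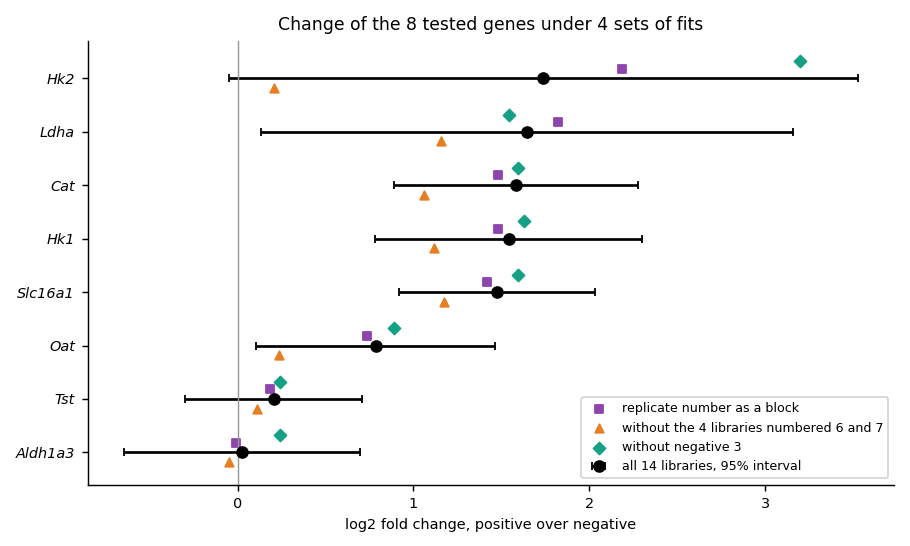
Log2 fold change, positive over negative, of the 8 tested members with all 14 libraries (black, with 95% interval), with the replicate number as a block, without the 4 libraries numbered 6 and 7 and without negative 3. Slc16a1, Hk1 and Cat stayed above 1 in each, Hk2 ran from 0.21 to 3.20, and Aldh1a3 stayed near 0.

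Compared per kilobase of annotated exon, the members differed in level by more than the groups did. In positive libraries the order of mean CPM per kilobase was Ldha (7.90 ± 5.94), Oat (5.05 ± 2.47), Cat (3.03 ± 1.78), Hk1 (2.96 ± 1.48), Slc16a1 (1.14 ± 0.47), Hk2 (0.693 ± 0.706), Aldh1a3 (0.463 ± 0.219), Acot7 (0.361 ± 0.202), Tst (0.321 ± 0.106) and Mgst1 (0.213 ± 0.131; SD, n = 7). In negative libraries Oat came first at 2.92 ± 1.17 CPM per kilobase, followed by Ldha (2.46 ± 2.34), Hk1 (1.01 ± 0.40), Cat (0.997 ± 0.302), Aldh1a3 (0.454 ± 0.206), Slc16a1 (0.409 ± 0.123), Tst (0.276 ± 0.067), Hk2 (0.205 ± 0.356), Acot7 (0.0762 ± 0.0560) and Mgst1 (0.0505 ± 0.0561). Most neighbours did not differ beyond their spread. Those that kept their order in all 7 libraries were Oat over Cat and Hk1 over Slc16a1 in positive cells, and Cat over Aldh1a3 and Slc16a1 over Tst in negative cells. For scale, Glb1 had 6.00 ± 0.30 in positive and 5.82 ± 0.62 CPM per kilobase in negative libraries.

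The members also varied together from library to library within each group. Over the 14 libraries, with the group means removed, the 28 pairs of tested members had Pearson r between 0.27 and 0.96. The median was 0.67. All members were read from the same libraries, which differed in cell mix and depth, and the values are descriptive. Hk1, Oat and Slc16a1 were the closest, and Tst the least like the rest. Among the 10537 genes whose log2 CPM averaged 3 or more, the 2 most like Hk1 were Ptprg (r = 0.98) and Epb41l2 (0.97), and Epb41l2 was also the first for Slc16a1 (0.97, followed by Sash1 at 0.96) and for Oat (0.96, followed by Hk1 itself). Among the same 10537 genes, the nearest to Ldha were Nptx2 and Gys1, muscle-type glycogen synthase (0.94 each). Slc16a3 and Ldha-ps2, below that level, were closer to Ldha (0.97 and 0.95, as given above). The nearest to Cat were Plin2, a lipid droplet protein, and Unc5b (0.96 each). Those nearest to Hk2 were Mmp14, a membrane matrix protease, and Sap30 (0.95 and 0.92). For Aldh1a3 the nearest were Ccdc90b and Agrn (0.89 and 0.84), and for Tst Ipo13 and Slc44a2 (0.77 and 0.75).

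**Figure D4:**
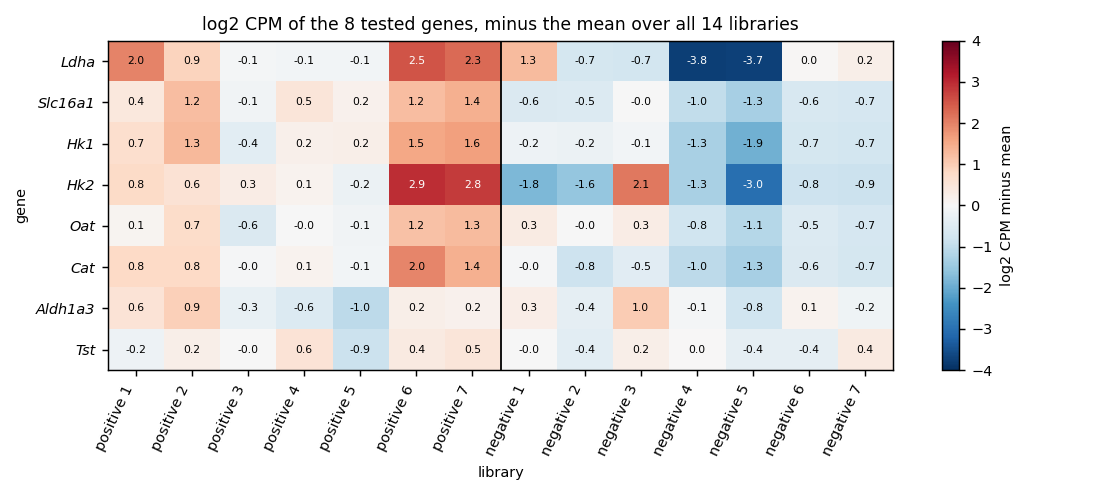
Log2 CPM of the 8 tested members in each library minus the gene's mean over all 14 libraries (prior count 2), with positive libraries left of the black line. Positive 2, 6 and 7 are above the mean for all 8 genes. Negative 2 and 5 are below it for all 8, with Oat in negative 2 close to the mean (−0.01). Negative 3 stands out for Hk2 at 2.11.

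Inside each group, Hk1, Oat and Slc16a1 were highest in the libraries with the most RNA of alpha cells and of PP cells. None of the 6 alpha and 2 PP cell markers was called between groups. The alpha cell sums averaged 12866 ± 8390 CPM in positive and 18439 ± 7710 CPM in negative libraries (SD). Summed alpha cell markers were 14804, 19250 and 27374 CPM in positive 6, 2 and 7, against 3409 to 11648 CPM in the other 4 positive libraries. The same 3 libraries had the highest Hk1 (39.1, 33.1 and 41.6 CPM; the other 4 had 9.93 to 21.5 CPM), the highest Oat and the highest Slc16a1. In the negative group, libraries 1, 2 and 3 held 25417 to 27991 CPM of alpha cell markers, against 10406 to 13906 CPM in the other 4. Those 3 had 11.4 to 12.4 CPM of Hk1, against 3.44 to 8.24 CPM in the others, and they also led their group in Oat and Slc16a1. Endothelial markers were low in those 3 negative libraries, at 6.02 to 10.3 CPM, and highest in negative 6 and 7, at 69.8 and 63.2 CPM. In the positive group, libraries 2, 6 and 7 led in endothelial markers (992 to 1317 CPM) and delta cell markers (1453 to 2197 CPM) as well. Positive 2, 6 and 7 also led in the sum of 2 PP cell markers (3190 to 5008 CPM, against 868 to 2861 CPM in the others). Negative 1, 2 and 3 led in PP cell markers too (2436 to 3575 CPM, against 1215 to 2392 CPM in the others). Outside these leading libraries the order could differ. Positive 5 had more alpha cell marker RNA than positive 1 (11648 against 5657 CPM) but less Hk1 (15.8 against 21.5 CPM), Oat and Slc16a1. The part of alpha, PP, delta, endothelial, macrophage and pericyte RNA in the rise of Slc16a1, Hk1 and Cat was not tested.

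**Figure D5:**
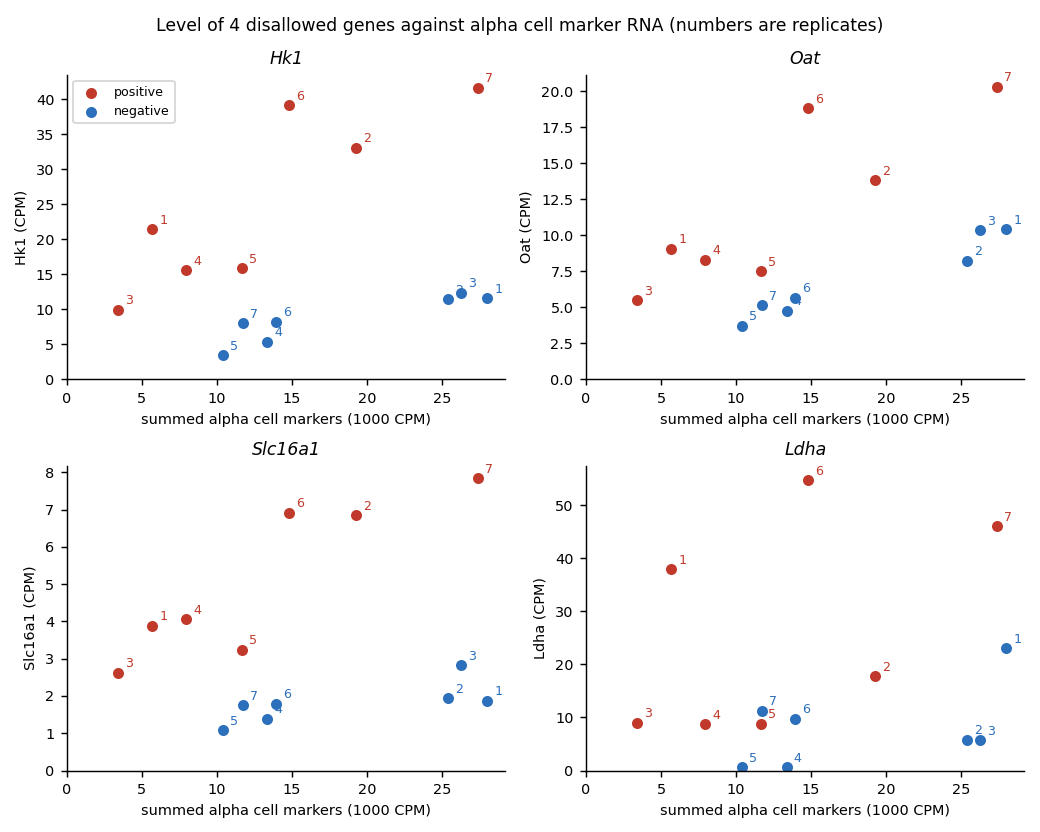
CPM of Hk1, Oat, Slc16a1 and Ldha against the summed CPM of 6 alpha cell markers, 1 point per library with its replicate number. Within each colour Hk1 and Oat are highest in the libraries with the most alpha cell marker RNA; the sums overlap between the groups, from 3409 to 27374 CPM in positive and from 10406 to 27991 CPM in negative libraries.

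Among other disallowed genes, which are not primarily metabolic, 11 of 17 tested rose and 0 fell, where 6.4% of all genes rose. Their median log2 fold change was 1.83. Without the 4 libraries numbered 6 and 7, 3.28% of all genes rose, and 8 of these 17 did. Among them were Smad3, a signal transducer of TGF-beta (2.06 ± 0.23, SE, edgeR adjusted p = 5.7e-05), Tgm2, a transglutaminase (2.27 ± 0.40, adjusted p = 0.00178), and Lmo4, a LIM-domain transcription cofactor (0.85 ± 0.19, adjusted p = 0.00833). Arhgdib, known from blood cells, rose by 4.96. It had 0 to 0.264 CPM in negative libraries and passed the filter on low counts through its positive libraries. So did Ndrg2, which had at most 0.427 CPM in every negative library except negative 3 (1.08 CPM). The direction of such genes adds no support. The endothelial and macrophage markers given above were higher in the same libraries, as were 4 of 9 pericyte, stellate and fibroblast markers. Their part in these rises was not tested.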

How the data were processed

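RNA of 14 libraries was sequenced as single reads after polyadenylated RNA selection and directional library preparation, per the labels' protocols. The authors deposited raw read counts per gene; per the submitters' processing notes Subread aligned the reads to GRCm38 and featureCounts counted them. Versions, annotation and strand setting are not given in the sources used here, so a gene and its antisense partner may share reads. Counts of 52459 genes were fitted in edgeR 4.0.16 (R 4.3.3) with filterByExpr (16350 genes kept), TMM factors (0.969 to 1.03), robust dispersions and the quasi-likelihood F-test on group, two-sided, with Benjamini-Hochberg adjustment. CPM use TMM-scaled totals; exon lengths and positions come from GENCODE M21. Standard errors come from the F statistic. Alternatives used DESeq2 1.42.0, limma 3.58.1 (voom), no filter, other libraries and a replicate block.

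Libraries of the same number deviated together from their group means, with correlations between 0.20 and 0.54 in the 7 pairs. The median for different numbers was −0.13. The numbers, taken from the titles, were therefore treated as pairs. No label states this pairing, which was inferred from these data and not tested. Shares within enzyme families were compared by exact permutation over 3432 splits, with p-values adjusted over 4 families, of which 1 is not reported here. No 2 libraries agreed within sampling noise (lowest chi-square per degree of freedom 5.36). On counts simulated for the comparison of 7 against 7 libraries (16205 genes tested), 60.9% of 1.5-fold and 88.1% of 2-fold changes were recovered, and 2.44% of calls were false. The simulated libraries were independent, with the trended dispersion of all genes and without pairs or differences in cell mix. These percentages may therefore not hold for these libraries, or for members of wide spread such as Ldha and Hk2. The members, gene lists and settings were chosen with earlier results of these data known. Named genes are the members, their isoenzymes, Glb1, the called genes of each pathway list (up to 4 of them of at least 3 in average log2 CPM, by size of change) and the 2 genes most like each member. Slc2a2, Pkm, Bsg, Ldha-ps2, Hk1os, C1qa, Pdgfrb and the called genes below that level were named after their values were seen.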

Additional observations from a re-analysis of the deposited data

Results flagged for a closer look

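Within groups of 7 libraries, 26 sets of values of the members were examined for a single library far from the others (gap over range above 0.568), which chance gives in about 1 of 20 sets, and 2 stood out, both in negative 3. Hk2 had 6.01 CPM in negative 3, against 0.0674 to 0.687 CPM in the other 6 negative libraries. Aldh1a3 had 4.03 CPM there, with the gap close to the limit. The same library held 1453 CPM of pericyte, stellate and fibroblast markers, and its part in these values was not tested.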

How the results depend on the processing

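The count of genes called was 1313, and 3200 with the replicate block, 2064 with DESeq2, 581 without the 4 libraries numbered 6 and 7, 3849 with the block and without both libraries numbered 3 (added after the data were seen), and 965 to 1883 when 1 library was left out. Of the members 3 were called, and 5 with DESeq2 (which also called Acot7 and Mgst1; 6.97% of genes called as higher), 5 with the block without libraries numbered 3 (12.9% of genes as higher) and 0 by edgeR without the 4 libraries numbered 6 and 7 (3.28% of genes as higher; 3 members at an unadjusted p below 0.05, and 2 called with the block). Leaving out 1 library gave 3 to 4, and another scaling (DESeq2 size factors) and limma-voom 3 each. The replicate block changed the call of 1 tested member, Ldha. The log2 fold change of Aldh1a3, 0.03, turned to −0.0103 with the block, −0.00234 without a filter, −0.0471 without libraries 6 and 7, −0.109 with the block without them and −0.0216 with limma-voom, and ran from −0.20 to 0.24 when 1 library was left out; none was called. Differences in shares, in percentage points, ran when 1 library was left out from 24.9 to 34.3 for Ldha, where the adjusted exact p passed without positive 3, 4 or 5 or negative 1 (0.0408 to 0.0490), from −11.4 to −1.80 for Slc16a1, and from −1.52 to 6.56 for Aldh1a3, below 0 without negative 3 or 5 (−0.583 and −1.52). The calls of Slc16a1, Hk1 and Cat were lost without libraries 6 and 7, and that of Hk1 also with the block without a filter or without those libraries; the cause was not tested. Depth limits Mgst1, with 57 positive and 13 negative reads, and the size of the Acot7 change, with 103 positive and 20 negative reads.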
